A study of Mus musculus with 14 samples.

Results

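The phagocyte NADPH oxidase is described here through 5 of its subunit genes, Cybb, Cyba, Ncf1, Ncf4 and Rac2, chosen by gene symbol among 22206 probe sets tested on mouse Clariom S arrays. Each of the 5 had 1 probe set. Adult male wild-type C57Bl6 mice were given, for 2 weeks, either CDAA, a choline-deficient diet to which cholesterol, glucose and fructose were added, or CSAA, the control diet. Total liver was the caudal lobe taken after a saline flush through the heart, with 4 arrays on CDAA and 4 on CSAA. Primary hepatocytes were isolated by collagenase perfusion, with 3 arrays on CDAA and 3 on CSAA. The study calls these independent preparations and does not say how many animals went into each. No purity step after the perfusion is described in the labels, so "hepatocyte preparations" is used below for these samples.

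The oxidase makes superoxide in phagocytes by passing electrons from NADPH across the membrane to oxygen. Cybb encodes the catalytic membrane subunit gp91phox, which needs the smaller membrane subunit p22phox, encoded by Cyba, to be stable. On activation the cytosolic organiser p47phox (Ncf1), p40phox (Ncf4, which binds a phosphoinositide of the phagosome membrane) and the GTPase Rac2 join them. In humans, loss of the oxidase causes chronic granulomatous disease. In liver the complex is known from Kupffer cells, recruited macrophages and neutrophils.

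Promoters are shown because all the subunits moved the same way with diet and because Cybb is, in human myeloid cells, a known target of the myeloid factor PU.1 and of interferon regulatory factors. RefSeq start sites (GRCm38.p6) gave a window for 3 of the 5 genes, each of 300 bases, from 250 before to 50 after the start, on the minus strand. The windows are chrX:9469275-9469574 for Cybb, chr5:134229576-134229875 for Ncf1 and chr8:122432891-122433190 for Cyba. The Cybb window lies within the RefSeq extent of the gene, chrX:9435252-9487766, which runs on upstream of it. Positions of matches in Cybb hold only for the start site used here. Capitals mark matches, on either strand, to GAGGAA, the core bound by PU.1, or to an element of interferon regulatory factors, searched as GAAA, any 2 bases and GAAA again.
Cybb: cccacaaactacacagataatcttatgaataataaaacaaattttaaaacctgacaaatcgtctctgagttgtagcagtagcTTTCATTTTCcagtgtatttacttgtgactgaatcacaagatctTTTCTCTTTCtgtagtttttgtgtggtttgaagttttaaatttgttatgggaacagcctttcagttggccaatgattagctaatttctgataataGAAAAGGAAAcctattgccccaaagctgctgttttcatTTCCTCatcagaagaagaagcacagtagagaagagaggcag
Ncf1: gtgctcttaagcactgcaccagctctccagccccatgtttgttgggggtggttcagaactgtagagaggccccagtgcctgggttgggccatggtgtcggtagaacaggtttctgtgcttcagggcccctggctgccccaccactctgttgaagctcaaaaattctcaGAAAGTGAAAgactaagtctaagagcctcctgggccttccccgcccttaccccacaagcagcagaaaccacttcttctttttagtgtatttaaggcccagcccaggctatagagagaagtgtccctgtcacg
Cyba: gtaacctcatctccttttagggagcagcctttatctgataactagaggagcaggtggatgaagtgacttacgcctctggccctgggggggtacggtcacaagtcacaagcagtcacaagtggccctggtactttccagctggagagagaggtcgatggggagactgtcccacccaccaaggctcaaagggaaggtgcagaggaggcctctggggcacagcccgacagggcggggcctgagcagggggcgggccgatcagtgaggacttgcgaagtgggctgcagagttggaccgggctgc
The Cybb window held 1 match to GAGGAA, starting at base 10 after the start site, and 3 matches to the interferon regulatory factor element, starting at -168, -124 and -29. The Ncf1 window held 1 match to that element, at -82, and none to GAGGAA. The Cyba window held neither run of letters. No match overlapped another. Over 32851 promoter windows of this length, 28.3% held GAGGAA and 3.44% held the other element. A match is a run of letters and not a measured binding site.

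Values are RMA intensities on the log2 scale, where a difference of 1 is a doubling. Array medians over all probe sets, controls among them, lay at 6.07 to 6.24 in total liver and at 4.56 to 4.71 in hepatocyte preparations. The tissues thus look to have been normalised apart, and their levels were not set against each other. As a bound on background the 95th percentile of 5222 intron control probe sets was taken in each array. It lay at 9.96 to 10.23 in total liver and at 6.84 to 8.01 in hepatocyte preparations. Arrays of 1 group correlated at 0.990 or more in total liver and at 0.952 or more in hepatocyte preparations. All 18 measured hepatocyte function genes lay above the intron control percentile in every array of both tissues. The number of arrays limits the precision.

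In total liver all 5 subunit genes rose on CDAA, by log2 differences of 1.67 to 3.29 (limma, Benjamini-Hochberg over all probe sets). Of all tested probe sets 6.73% rose by the same rule. Each of the 5 had every CDAA array above every CSAA array, as did 13.1% of all probe sets. The median difference of the 5 was 2.13, against -0.09 over all tested probe sets. In these bulk samples, more cells that carry a transcript and more transcript per cell cannot be told apart.

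The membrane subunits are given first. Cybb (probe set TC0X00001829.mm.2) had 14.31, 13.64, 13.64 and 13.68 in CDAA livers, against 10.44, 10.03, 11.13 and 10.49 in CSAA livers. The ranges did not overlap, and every CDAA array lay above background while 3 of 4 CSAA arrays did. The difference was 3.29 ± 0.30 (SE, n = 4 arrays per diet, limma, adjusted p = 3.9e-06), a 9.80-fold change, and 0.455% of all probe sets had a larger difference. Cyba (probe set TC0800003068.mm.2) had 9.81, 9.53, 8.84 and 9.05 in CDAA livers, against 6.78, 6.84, 6.97 and 6.92 in CSAA livers. All 8 values lay under the intron control percentile, and the CSAA values were close together (SD 0.09, against 0.44 on CDAA). The difference of Cyba was 2.43 ± 0.61 (limma, adjusted p = 0.0169). Its SE carries the spread of the hepatocyte arrays. With the total liver arrays alone in the fit it was 0.20 (limma, adjusted p = 1.13e-05). In the fit to all groups the call was lost without CDAA replicate 1, at 2.26 ± 0.67 (adjusted p = 0.0607).

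The cytosolic subunits rose by 1.67 to 2.13. Ncf1 (probe set TC0500003368.mm.2) had 8.99, 8.18, 8.01 and 8.29 in CDAA livers, against 6.50, 6.17, 7.13 and 7.00 in CSAA livers, a difference of 1.67 ± 0.34 (limma, adjusted p = 0.00406). Ncf4 (probe set TC1500000640.mm.2) had 9.42, 9.25, 9.09 and 8.86 in CDAA livers, against 7.42, 7.26, 7.73 and 7.27 in CSAA livers, a difference of 1.73 ± 0.27 (limma, adjusted p = 0.000611). Rac2 (probe set TC1500001838.mm.2), the haematopoietic Rac, had 9.36, 8.75, 8.46 and 8.46 in CDAA livers, against 6.85, 6.66, 6.94 and 6.07 in CSAA livers, a difference of 2.13 ± 0.44 (limma, adjusted p = 0.00442). The diets did not overlap in any of these genes. All their total liver values lay under the intron control percentile, so no fold is given, and the sizes rest on values not above background. CDAA replicate 1 was the highest array for each of the 5 subunits.

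**Figure D1:**
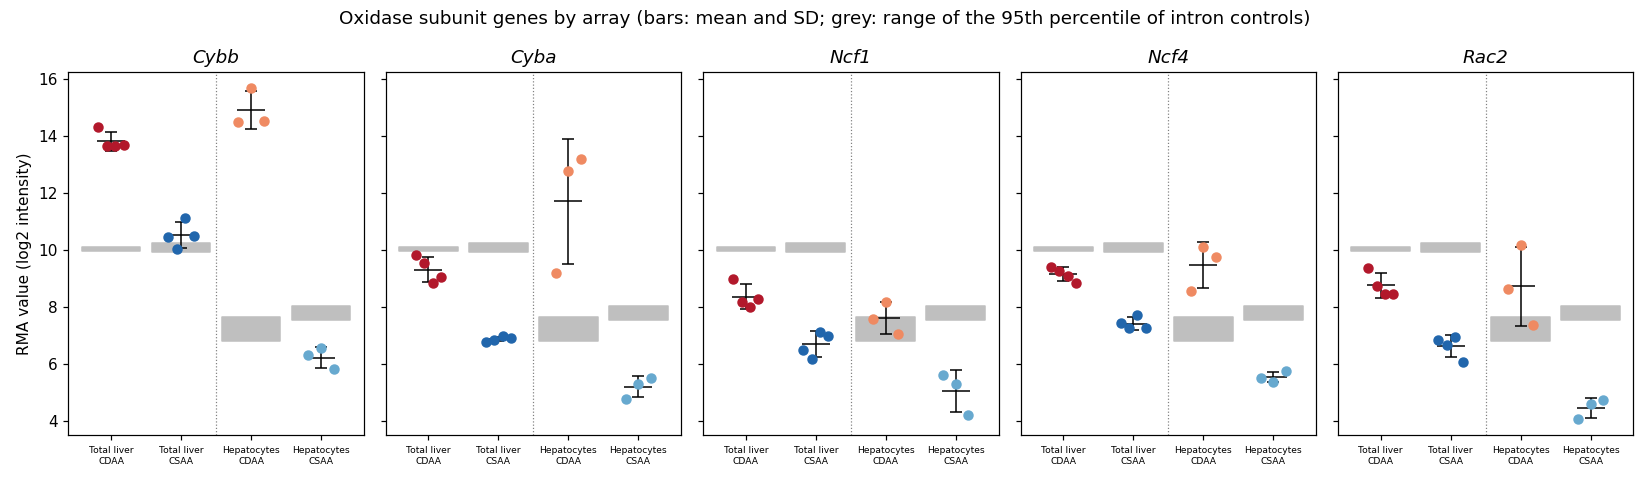
Values of the 5 subunit genes (log2 intensity) in each array, by tissue and diet. Points are arrays, bars are the mean and SD, and grey bands are the range of the intron control 95th percentile in that group; in both tissues every CDAA point lies above every CSAA point, and in total liver only Cybb rises above the band.

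In hepatocyte preparations all 5 genes rose as well, by 2.55 to 8.68, where 11.0% of all tested probe sets rose. Every CDAA array again lay above every CSAA array, as did 12.4% of all probe sets. The median of the 5 was 4.26, against -0.13 over all probe sets. On CSAA none of the 5 reached the intron control percentile in any array, so fitted differences are followed by the least change above that percentile.

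Cybb had 14.51, 15.67 and 14.54 in CDAA preparations, against 6.31, 6.55 and 5.82 in CSAA preparations. Its CDAA values were far above background, and its fitted difference was 8.68 ± 0.34 (n = 3 arrays per diet, limma, adjusted p = 2.27e-10), at least 144-fold. Of all probe sets 0.0991% had a larger difference. Cyba had 9.20, 12.76 and 13.19 in CDAA preparations, against 4.79, 5.31 and 5.51 in CSAA preparations. CDAA replicate 1 was thus far under the other 2. The SD was 2.19 on CDAA and 0.37 on CSAA, and the SE that follows shares the spread of the total liver arrays (SD 0.44 and 0.09). The fitted difference was 6.51 ± 0.70 (limma, adjusted p = 5.44e-06, at most 0.00521 over 15 alternatives), at least 15.7-fold. It was 7.77 (at least 37.7-fold) without that array, 5.99 (at least 11.0-fold) without replicate 2 and 5.77 (at least 9.42-fold) without replicate 3.

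Ncf4 had 8.57, 10.10 and 9.77 in CDAA preparations, against 5.50, 5.38 and 5.74 in CSAA preparations. Its fitted difference was 3.94 ± 0.31 (limma, adjusted p = 2.44e-07), at least 3.34-fold. Rac2 had 8.64, 10.17 and 7.37 in CDAA preparations, against 4.07, 4.59 and 4.73 in CSAA preparations. Here CDAA replicate 3 was the low array and lay under background. The SD of Rac2 was 1.40 on CDAA and 0.34 on CSAA, and its SE too shares the spread of all groups. The fitted difference of Rac2 was 4.26 ± 0.50 (limma, adjusted p = 1.38e-05, at most 0.00576 over 15 alternatives), at least 1.98-fold with all arrays. That least change rests on CDAA replicate 2: without it the fold is at least 1.20, and without replicate 3 at least 3.16. Ncf1 had 7.59, 8.17 and 7.05 in CDAA preparations, against 5.62, 5.31 and 4.22 in CSAA preparations, a fitted difference of 2.55 ± 0.39 (limma, adjusted p = 0.000184). Of its 3 CDAA arrays 2 lay above the percentile, and no least change could be given.

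The subunits were not ordered alike across the 3 CDAA preparations. Relative to the CSAA mean, replicate 1 stood at 8.28 for Cybb but at 3.99 for Cyba. In replicate 3 these were 8.31 and 7.99, while Rac2 stood at 2.90. Replicate 2 was the highest for Cybb, Ncf1, Ncf4 and Rac2 but not for Cyba. In total liver the same measure ran from 3.11 to 3.78 for Cybb, from 1.97 to 2.93 for Cyba and from 1.83 to 2.73 for Rac2. With 3 arrays the differences between subunits in the preparations were not tested.

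**Figure D2:**
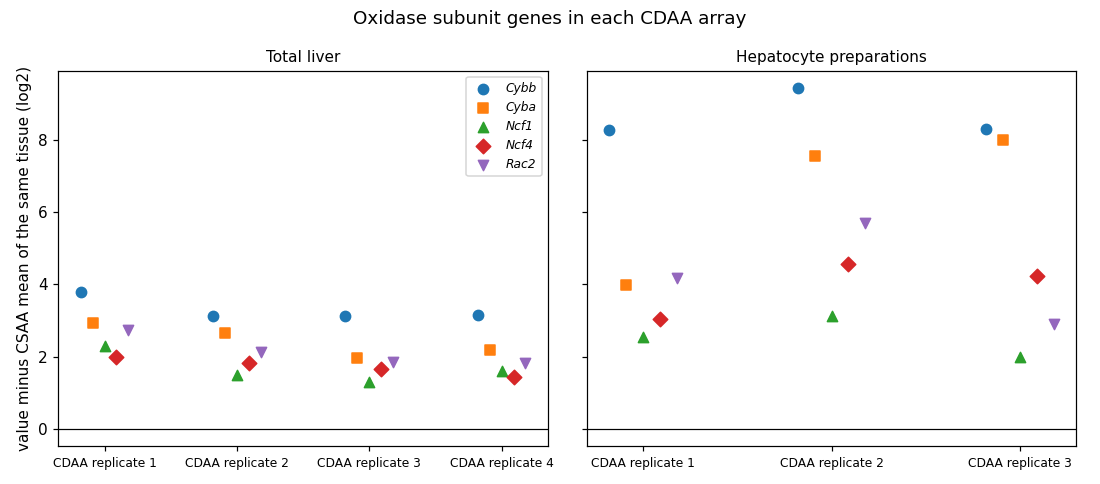
Each subunit gene in each CDAA array, as its value minus the CSAA mean of the same tissue (log2). In hepatocyte preparations Cyba is low in replicate 1 and Rac2 and Ncf1 are lowest in replicate 3, while in total liver replicate 1 is the highest for each of the 5.

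The diet effect was then compared between the tissues, as the difference in total liver minus the difference in hepatocyte preparations. It was smaller in total liver for Cybb (-5.38 ± 0.45, limma, adjusted p = 8.47e-06), Ncf4 (-2.21 ± 0.42, adjusted p = 0.00664) and Cyba (-4.08 ± 0.92, adjusted p = 0.0252). Of all probe sets 2.36% passed in that direction and 0.212% in the other. Rac2 had -2.13 ± 0.67 (adjusted p = 0.141) and Ncf1 had -0.89 ± 0.51 (adjusted p = 0.553), neither past the threshold. The call for Cyba was lost with a spread estimated in each tissue (adjusted p = 0.108). Leaving out 1 array also ended it for 9 of the 14 arrays, with differences of -5.34 to -3.34 over all 14. Rac2 passed under 4 of 23 alternatives, among them without CDAA hepatocyte replicate 3, at -2.81 ± 0.52 (adjusted p = 0.00633). Background lay higher in total liver, where 4 of the 5 genes were under it on both diets, and its part in these differences was not tested.

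Markers of other liver cells moved with the subunits in the hepatocyte preparations, where 11.0% of all probe sets rose. Of 9 pan-leukocyte genes without Rac2, 9 rose there, with a median of 4.66, and their mean per array was 9.44 to 11.25 on CDAA against 5.12 to 5.72 on CSAA. All 12 Kupffer cell markers rose, with a median of 6.73 and array means of 11.38 to 13.19 on CDAA against 5.79 to 6.39 on CSAA. Their members included Cd5l, a secreted scavenger receptor protein (10.23 ± 0.41), and C1qc, a complement chain (7.82 ± 0.37). On CSAA 11 of the 12 lay under background in every array. All 13 macrophage and monocyte markers rose as well, with a median of 6.75, among them the growth factor receptor gene Csf1r (6.75 ± 0.33). Cd5l, C1qc and Csf1r were under background on CSAA, which leaves changes of at least 629-fold, 40.2-fold and 18.9-fold.

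Lists for sinusoidal endothelial cells, stellate cells and hepatocytes were read too, in preparations where 11.0% of all probe sets rose and 7.74% fell. Of 12 sinusoidal endothelial markers 11 rose in the preparations, with a median of 3.83 and array means of 9.21 to 10.42 on CDAA against 5.93 to 6.33 on CSAA. All 12 stellate cell markers rose, with a median of 4.10, among them Dcn, a matrix proteoglycan (7.18 ± 0.59). Of 18 hepatocyte function genes 7 fell, with a median of -1.05 and array means of 16.22 to 16.96 on CDAA against 17.49 to 17.76 on CSAA. Their part in the rise of the subunits was not tested.

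In total liver the medians of the leukocyte, macrophage, Kupffer and endothelial lists were smaller. There 6.73% of all probe sets rose and 3.54% fell, while 11.0% rose in the preparations. Of the 9 pan-leukocyte genes 8 rose, with a median of 1.84 and array means of 9.80 to 10.41 on CDAA against 7.88 to 8.13 on CSAA. CDAA replicate 1, the highest array for the subunits, was also the highest of these. All 13 macrophage and monocyte markers rose, with a median of 2.83 and array means of 10.24 to 11.37 against 7.07 to 7.43. Kupffer cell markers had 7 of 12 up and sinusoidal endothelial markers 1 of 12. Of 12 stellate cell markers 7 rose, with a median of 1.38 and array means of 9.59 to 10.81 on CDAA against 8.18 to 8.61 on CSAA, among them the collagen gene Col3a1 (3.96 ± 0.33, limma, adjusted p = 1.95e-06). CDAA replicate 1 was the highest array of the stellate list too. Of 11 neutrophil markers 4 rose in each tissue. Neutrophil array means were 5.09 to 6.02 on CDAA against 4.47 to 4.67 on CSAA in total liver. In the preparations they were 4.15 to 4.90 against 3.50 to 3.57. In total liver all 11 were under background on both diets, and in the preparations all 11 on CSAA and 9 on CDAA were. B cell markers had 0 of 7 called in total liver, and 2 of 7 higher in the preparations, with all 7 under background in every group. Among 13 T and NK cell markers 3 rose and 1 fell in total liver, and 4 rose in the preparations, and cholangiocyte markers had 1 of 7 up in each. With each array centred on hepatocyte function genes, 10 of 11 neutrophil, 11 of 13 T and NK cell and 7 of 7 B cell markers rose in the preparations. That centring took from each array a value that differed by -1.27, CDAA minus CSAA, so every diet difference there moved upward. The share of all probe sets that rose under it is not given here. On CDAA, 9 of the neutrophil, 12 of the T and NK cell and 7 of the B cell markers lay under background there.

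**Figure D3:**
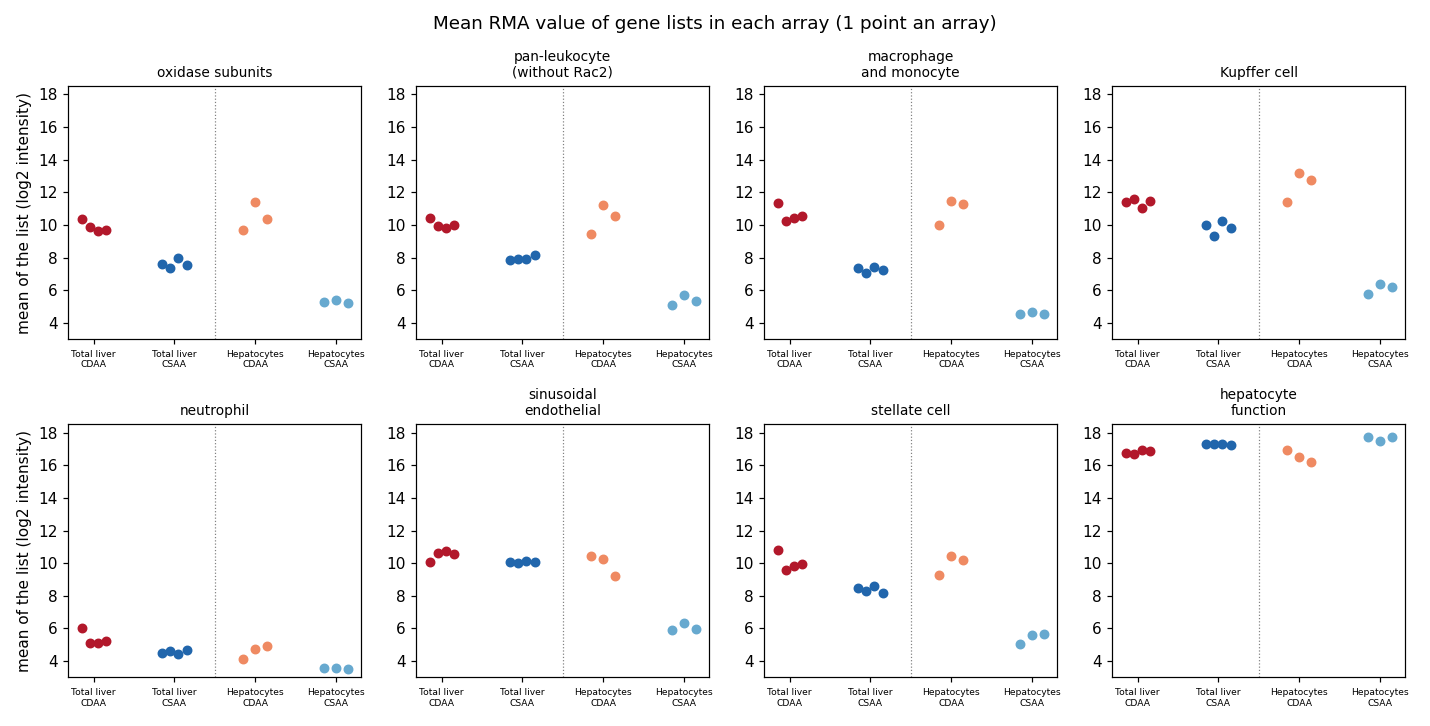
Mean log2 value of the subunits and of 7 marker lists in each array, by tissue and diet. The subunits, leukocyte, macrophage, Kupffer, endothelial and stellate lists lie higher on CDAA than on CSAA in hepatocyte preparations, and hepatocyte function genes lie lower. The neutrophil list, mostly under background, also lies higher on CDAA in both tissues.

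The partners and regulators of the complex were described from a list of 18 genes, of which 15 had a named probe set. In total liver 9 rose and 0 fell, with a median of 1.62, and in hepatocyte preparations 13 rose and 0 fell, with a median of 2.03. Among all probe sets 6.73% rose in total liver and 11.0% in the preparations. In total liver 11 of the 15 on CDAA and 12 on CSAA lay under background, and in the preparations 5 on CDAA and 12 on CSAA. With the hepatocyte arrays alone in the fit 8 of the 15 rose there.

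Rac1, the widely expressed relative of Rac2 that can take its place in the complex, had 15.87, 15.77, 16.03 and 15.85 in CDAA livers, against 15.64, 15.65, 15.41 and 15.57 in CSAA livers, a difference of 0.31 ± 0.26 (limma, adjusted p = 0.503) that did not pass, although the ranges did not overlap. In hepatocyte preparations its difference was 0.95 ± 0.30 (limma, adjusted p = 0.0374) with overlapping ranges, and the call was lost under 6 of 15 alternatives. Rap1a, a small GTPase found with the membrane subunits, had 0.49 ± 0.25 in total liver, without passing, and rose by 1.51 ± 0.29 in the preparations. Cybc1, a chaperone that p22phox and gp91phox need, had 0.27 ± 0.32 in total liver (limma, adjusted p = 0.662). In the preparations it rose by 2.03 ± 0.37 (limma, adjusted p = 0.000979), with 6.99, 8.67 and 8.42 on CDAA against 5.77, 5.71 and 6.50 on CSAA. The array low for Cyba was low for Cybc1 too. Hvcn1, the proton channel that balances the charge moved by the oxidase, had 0.16 ± 0.27 in total liver and rose by 0.99 ± 0.31 in the preparations, under background in every group.

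Regulators of Rac come next. Arhgdib, which holds Rac2 in the cytosol of leukocytes, rose by 2.09 ± 0.48 in total liver (limma, adjusted p = 0.00952). In the preparations it had 10.63, 13.59 and 12.89 on CDAA against 4.97, 6.17 and 6.06 on CSAA, a fitted difference of 6.64 ± 0.55 (limma, adjusted p = 3.73e-07). With the CSAA arrays under background, this was at least 24.8-fold. Its low CDAA array was again replicate 1. Of the exchange factors for Rac, Vav1 rose by 1.95 ± 0.35 in total liver and by 2.77 ± 0.40 in the preparations, and Dock2 by 2.34 ± 0.34 and 3.14 ± 0.39. Prex1 had 0.90 ± 0.31 and 0.66 ± 0.36 and Vav3 had 0.83 ± 0.31 and 1.04 ± 0.36 in the same order, and none of these 4 values passed. Vav1 and Dock2 were under background on both diets in total liver and on CSAA in the preparations, and Prex1 and Vav3 in every group.

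The kinases that act on the cytosolic subunits or upstream of them rose in each tissue. Prkcb, a protein kinase C that phosphorylates p47phox, rose by 1.62 ± 0.25 in total liver and by 4.01 ± 0.29 in the preparations, and Prkcd by 1.78 ± 0.29 and 2.42 ± 0.34. Syk, which couples Fc and lectin receptors to the oxidase, rose by 1.72 ± 0.23 and 2.14 ± 0.26. Btk, a kinase of B cells and myeloid cells, rose by 1.62 ± 0.23 and 3.46 ± 0.26. The phosphoinositide kinase genes Pik3cg (1.83 ± 0.34 and 1.56 ± 0.39) and Pik3cd (1.23 ± 0.26 and 1.41 ± 0.30) also rose in each, but both were under background in every group. Prkcb, Syk and Btk were under background on both diets in total liver and on CSAA in the preparations. The diet effect was smaller in total liver than in the preparations for Arhgdib (-4.54 ± 0.73, adjusted p = 0.00194), Prkcb (-2.39 ± 0.39, adjusted p = 0.00201) and Btk (-1.84 ± 0.35, adjusted p = 0.00712), by limma, and for 0 of the other 12.

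**Figure D4:**
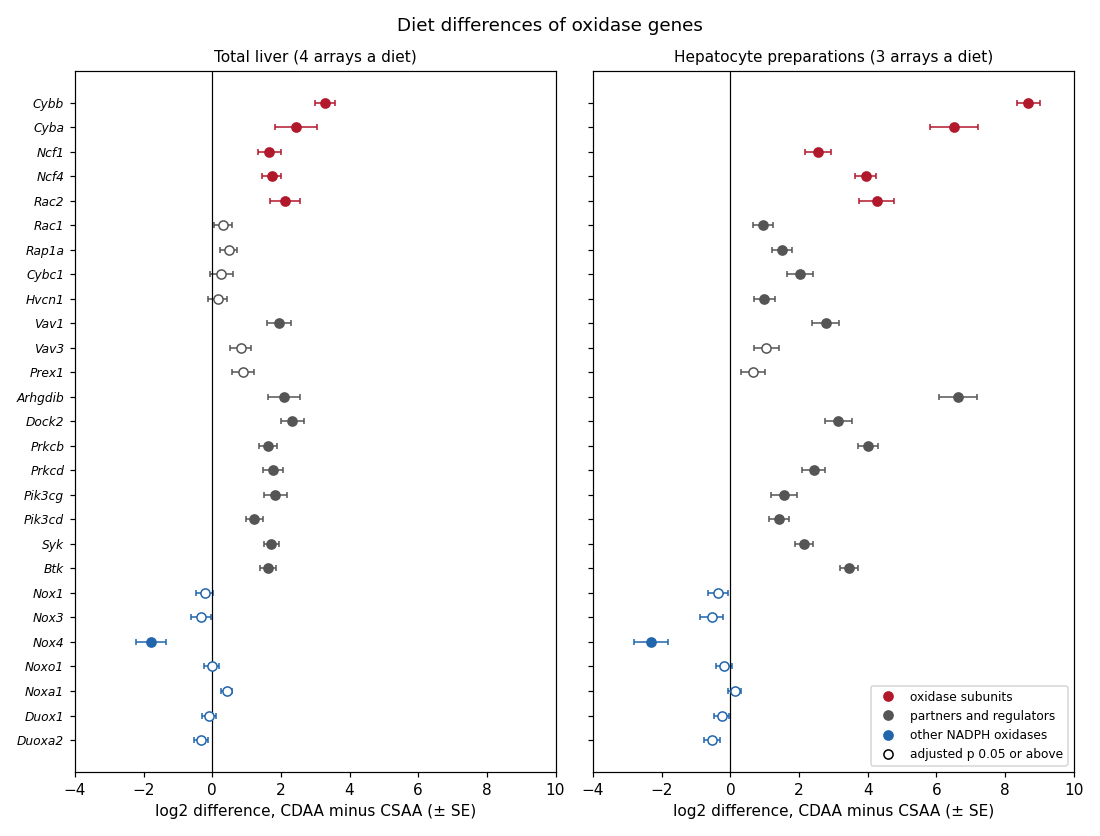
Log2 difference, CDAA minus CSAA, with its SE, for the subunits, their 15 measured partners and regulators and 7 other NADPH oxidase genes, in total liver and in hepatocyte preparations. Filled points passed the test; the subunits lie to the right of 0 in both tissues and Nox4 to the left.

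Other NADPH oxidases were also read. Of 7 measured genes of this list 0 rose and 1 fell in each tissue, where 3.54% of all probe sets fell in total liver and 7.74% in the preparations. The gene that fell was Nox4, an oxidase that also pairs with p22phox but is active without the cytosolic subunits and is known from hepatocytes and stellate cells. Nox4 had 9.30, 9.94, 10.47 and 10.65 in CDAA livers, against 11.98, 11.98, 11.87 and 11.61 in CSAA livers. The ranges did not overlap, and the difference was -1.77 ± 0.44 (limma, adjusted p = 0.0159). It had 8.65, 7.62 and 6.28 in CDAA preparations, against 10.26, 8.95 and 10.28 in CSAA preparations, a difference of -2.31 ± 0.50 (limma, adjusted p = 0.00391). The lowest CDAA liver was replicate 1, the array highest for the subunits. Without it the call in total liver was lost, at -1.51 ± 0.45 (adjusted p = 0.0657). In the preparations it was lost with their arrays alone in the fit (adjusted p = 0.0703) and after centring on hepatocyte function genes, at -1.04 ± 0.46 (adjusted p = 0.0631). The other 6, Nox1, Nox3, Noxo1, Noxa1, Duox1 and Duoxa2, had differences of -0.55 to 0.42 and were under background in every group.

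Of 13 measured genes for receptors and signalling chains tied to the phagosome, 9 rose in total liver and 13 in the preparations, with medians of 2.53 and 5.12. The share of all probe sets that rose was 6.73% in total liver and 11.0% in the preparations. This list holds Fcgr2b, which is also counted in the sinusoidal endothelial list and is not taken here as a trigger of the oxidase. The 4 that did not pass in total liver, named after their values were seen, were the Fc gamma receptor genes Fcgr1 (1.80 ± 0.58), Fcgr2b (0.40 ± 0.31), Fcgr3 (1.27 ± 0.43) and Fcgr4 (2.12 ± 0.71), with adjusted p of 0.0637 to 0.476 by limma. Fcer1g, the signalling chain of Fc receptors, rose by 3.11 ± 0.46 in total liver and by 9.04 ± 0.53 in the preparations. Itgb2, the beta chain of the leukocyte integrins, rose by 3.57 ± 0.29 and 6.83 ± 0.33. In the preparations both genes were under background on CSAA, which leaves at least 59.1-fold for Fcer1g and at least 4.75-fold for Itgb2, and Itgb2 was under background on both diets in total liver. Among 10 measured myeloid transcription factors 3 rose in total liver, and 4 rose and 1 fell in the preparations, where 7.74% of all probe sets fell. Spi1, which encodes PU.1, had 15.59, 14.80, 15.05 and 15.04 in CDAA livers, against 12.03, 11.32, 12.05 and 11.91 in CSAA livers, a difference of 3.29 ± 0.33 (limma, adjusted p = 1.08e-05). In the preparations Spi1 had 16.06, 17.27 and 16.35 on CDAA, against 6.09, 7.61 and 7.28 on CSAA, a fitted difference of 9.57 ± 0.38 (limma, adjusted p = 2.31e-10). All 3 CSAA values lay under background, and the change was at least 453-fold. Irf1, an interferon-induced factor, rose by 0.84 ± 0.26 in total liver, with overlapping ranges (limma, adjusted p = 0.0483), and by 2.55 ± 0.30 in the preparations. The total liver count of 3 was 1 after joint quantile normalisation.

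Enzymes that remove superoxide and peroxide were measured as a list, with 1 of 16 rising in total liver and 5 rising and 1 falling in the preparations, and medians of 0.34 and 0.52. Of all probe sets 6.73% rose in total liver, and 11.0% rose and 7.74% fell in the preparations. The enzyme gene that fell, named after its value was seen, was Txn2 (-1.11 ± 0.27, limma, adjusted p = 0.00866). Sod1, also named after its values were seen, lay lower on CDAA without overlap in each tissue, at -0.42 ± 0.17 and -0.51 ± 0.20, without passing. In total liver 9 of the 16 had every CDAA array above every CSAA array and 1 below, as did 13.1% and 12.0% of all probe sets. In the preparations 3 lay above and 2 below in this way, as did 12.4% and 14.2% of all probe sets. Gpx3, a secreted glutathione peroxidase, rose by 2.80 ± 0.53 in total liver and by 4.57 ± 0.61 in the preparations. Sod3, the extracellular superoxide dismutase, had 1.19 ± 0.39 in total liver, without passing, and rose by 6.14 ± 0.45 in the preparations. On CSAA both were under background there, which leaves at least 4.54-fold for Gpx3 and at least 17.9-fold for Sod3. The total liver count was 7 with the total liver arrays alone in the fit, and the count of risers in the preparations was 9 after centring on hepatocyte function genes.

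Genes with the pattern most like the mean of the 5 subunits were found by Pearson correlation within a tissue, given as a description because the diets make separate clusters. Over the 8 total liver arrays these were Bcl2a1d, Ctss, Lyz2, Bcl2a1a and Slc11a1, with r of 0.996 to 0.997. Bcl2a1d and Bcl2a1a are close copies of each other, and whether their probe sets tell them apart was not checked. Ctss encodes the protease cathepsin S, Lyz2 the lysozyme of macrophages and Slc11a1 a metal transporter of the phagosome. Over the 6 hepatocyte arrays they were Clec4a2, Ubd, Cmtm3, Ptprc and Treml4, with r of 0.998 to 0.999. Of all probe sets 3.32% in total liver and 3.93% in the preparations had r above 0.95. Each subunit correlated with the mean of the other 4 at 0.953 to 0.992 in total liver, and at 0.922 to 0.989 in the preparations.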

How the data were processed

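RNA of 8 total liver and 6 hepatocyte preparations was hybridised to 14 Clariom S mouse arrays. The deposited values are log2 intensities made by the authors with RMA, per the submitters' processing notes, whose version is not given in the sources used here. Per the labels' protocols, RNA came from different kits for the tissues and was labelled with the WT PLUS reagents. Of 28846 probe sets 6640 controls were left out and 22206 tested, with no filter on dim ones. Of these 19572 had 1 gene symbol, 0 several and 2634 none. Of 200 listed genes 23 had no named probe set.

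Groups were tissue by diet, from the sample titles. limma 3.58.1 (R 4.3.3) estimated 4 group means from the 14 arrays together (10 residual and 5.11 prior degrees of freedom). The two-sided moderated test was adjusted by Benjamini-Hochberg over all tested probe sets per contrast, at 0.05, and adjusted p-values in the text are from it. It was tested on simulated data. P-values rest on the spread between arrays within groups, which is shared by total liver and hepatocyte preparations and moderated over probe sets. A group was under background where every array lay under its 95th percentile of intron controls, and a least change was taken from that percentile. Named genes were every member, every measured gene of the lists of partners and of other oxidases, from each other list at most 4 with the smallest p (here 2, some not printed), and the 5 most alike per tissue. The members, lists and alternatives were chosen with earlier results of these data known. Promoter sequences are from RefSeq. Alternatives were other moderation, fits within a tissue, a filter on the dimmest 30%, joint quantile normalisation, 2 centrings, array weights, a replicate block, the mean over probe sets and leaving out each array. Leaving out arrays for the least changes was chosen after seeing the data.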

Additional observations from a re-analysis of the deposited data

Results flagged for a closer look

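Among 54 gene and group combinations of the total liver arrays (subunits, partners and other oxidases), 2 held an array far from the other 3 by Dixon's test, where chance gives about 1 in 20. For Cybb, replicate 1 of the CDAA livers had 14.31, and its 3 companions lay between 13.64 and 13.68. The mean of the 9 pan-leukocyte genes was 10.41 in that array and 9.80 to 9.97 in its companions. Whether this bears on the Cybb value was not tested. For Cybc1, replicate 2 of the CSAA livers had 6.32, and the rest of that group 7.01 to 7.10.

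The diet effect in total liver was smaller than that in hepatocyte preparations, by the test of the difference itself, for 6 of the 27 genes. These were Cybb (-5.38), Cyba (-4.08), Ncf4 (-2.21), Arhgdib (-4.54), Prkcb (-2.39) and Btk (-1.84). In the same test, where 2.36% of all probe sets were lower, 10 of 12 Kupffer cell, 9 of 12 sinusoidal endothelial, 8 of 12 stellate cell, 6 of 9 pan-leukocyte and 6 of 13 macrophage and monocyte markers were lower.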

How the results depend on the processing

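All 5 subunits kept their direction in both tissues and in the difference between tissues under every alternative run. The number called was 4 to 5 of 5 in total liver and 5 in hepatocyte preparations, over 17 and 15 alternatives. For the difference between tissues it was 2 to 4, over 23. Leaving out 1 array gave 4 to 5, 5 to 5 and 2 to 4. Besides the losses already given, Cyba in total liver missed the threshold after centring on hepatocyte function genes (2.67, adjusted p = 0.0505). Over its alternatives its adjusted p was at most 0.0607. That centring moved diet differences upward, since the value subtracted from each array differed between the diets. CDAA minus CSAA, that value was -0.24 in total liver and -1.27 in the preparations. Array medians over the tested probe sets, without controls, differed by 0.14 and 0.16 in the same order. Of 660 alternative values for the subunits and 7 other genes 631 stayed on their side of the threshold, 21 lost and 6 gained a call, and 2 changed sign. Those 2 were Nox4 in the difference between tissues, which no fit called, at -0.49 after centring on hepatocyte function genes and -0.080 without CDAA hepatocyte replicate 3, against 0.54 with all arrays. Leaving out 1 array gave -0.080 to 1.11. The cause was not tested. The shared replicate numbers were not treated as pairs in the main fit. Deviations from the group means of arrays with the same number had r of -0.13 to 0.02 in total liver, and of 0.35, -0.21 and 0.26 in the preparations. With 3 arrays per diet, the values of the preparations cannot decide whether those of the same number belong together. With the replicate block 5, 5 and 3 subunits were called. Counts for lists depended on the fit: with a tissue's own arrays alone, the myeloid factors that rose in total liver were 5 and not 3 (1 after joint quantile normalisation), endothelial markers 4 and not 1, and the hepatocyte genes that fell were 6 and not 2. In the preparations those that fell were 2 and not 7 (11 when centred on array medians), the removal enzymes that rose 3 and not 5, and B cell markers 1 and not 2. Centred on hepatocyte function genes, 2 and not 4 neutrophil markers rose in total liver and 7 and not 4 myeloid factors in the preparations. Without CDAA hepatocyte replicate 1, 5 and not 1 removal enzymes fell in the preparations, and without replicate 3, 3 and not 1 other oxidases. Signal over background limits Cyba, Ncf1, Ncf4 and Rac2 in total liver, where no value rose above it.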
